A study of Homo sapiens with 12 samples.

Results

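The proteasome genes of human 293A-TOA cells, a line derived from HEK293A embryonic kidney cells, were followed through knockdown of the splicing factor SFSWAP and of the nonsense-mediated decay factor UPF1. Genes were taken by symbol: PSM, a letter from A to G, and a number. They held 642 of the 134118 skipped exon events and 99 of the 11288 retained intron events that averaged 10 or more reads per library in at least 1 of the deposited tables. These events lay in 41 of 10397 genes. By class, the genes were 7 PSMA genes, 7 PSMB genes, 5 PSMC genes, 13 PSMD genes, 4 PSME genes, PSMF1 and 4 PSMG genes. An annotation holds 48 genes of this symbol pattern, and PSMA8, PSMB3, PSMB8, PSMB9, PSMB11, PSMC4 and PSMD5 had no event to follow. For 16 of the genes with an event the annotation also names pseudogenes, whose reads may be shared with exon bodies.

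The 12 polyA RNA-seq libraries formed 4 groups of 3 biological replicates: siSFSWAP, siSFSWAP/siUPF1, siNT/siUPF1 and siNT, where siNT is the non-targeting control siRNA. SFSWAP was targeted with 2 siRNAs at 40 nM and UPF1 at 30 nM, and cells grew for 4 more days after they were split. All 4 groups, controls included, received 1 μM TG, an inhibitor of the O-GlcNAc hydrolase OGA, for the last 6 hr. All comparisons are therefore between TG-treated cells.

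The proteasome is the protease that degrades ubiquitin-tagged proteins. Its barrel-shaped core particle, the 20S particle, has outer rings of alpha subunits (PSMA genes), which gate the entrance, and inner rings of beta subunits (PSMB genes), some of which carry the catalytic sites. The 19S regulatory particle caps the core. It is built from ATPases that unfold substrates (PSMC genes) and non-ATPase subunits that bind, deubiquitinate and position them (most PSMD genes). The PSME genes encode alternative activator caps, PSMF1 encodes a protein known as a proteasome inhibitor, and the PSMG genes encode chaperones of core assembly. Exons whose length is a multiple of 3 can be left out without a change of reading frame, whereas leaving out other exons shifts the frame and usually brings a premature stop codon, for which UPF1 is a central sensor.

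The exons on which the results turn are printed below from the GRCh38 genome, in the sense of the transcript, so that their ends and lengths can be read directly. Lower case marks 40 bases of the intron before the exon and 10 bases after it, and capitals mark the exon. The first group holds exons that were skipped more often after siSFSWAP, 4 of which have a length that is a multiple of 3. Exon numbers are those of the MANE Select transcript, the reference coding transcript of each gene.
PSMD11 exon 11 (chr17:32479851-32479886, plus strand): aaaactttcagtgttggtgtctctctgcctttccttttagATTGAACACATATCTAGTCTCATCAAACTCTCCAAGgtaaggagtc
PSMC1 exon 5 (chr14:90263662-90263847, plus strand): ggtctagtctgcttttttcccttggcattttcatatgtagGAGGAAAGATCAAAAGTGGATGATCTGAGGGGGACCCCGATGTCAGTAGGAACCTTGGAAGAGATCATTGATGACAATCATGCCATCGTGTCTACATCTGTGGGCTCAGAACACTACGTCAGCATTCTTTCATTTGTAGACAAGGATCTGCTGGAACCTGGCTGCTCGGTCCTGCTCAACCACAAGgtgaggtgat
PSMG1 exon 4 (chr21:39179924-39179986, minus strand): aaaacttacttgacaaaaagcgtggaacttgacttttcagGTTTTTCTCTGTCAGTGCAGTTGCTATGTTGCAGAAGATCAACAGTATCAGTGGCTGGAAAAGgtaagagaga
PSME3 exon 2 (chr17:42834344-42834376, plus strand): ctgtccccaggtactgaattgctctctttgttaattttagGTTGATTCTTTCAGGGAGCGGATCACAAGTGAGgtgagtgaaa
PSMA4 exon 3 (chr15:78542177-78542219, plus strand): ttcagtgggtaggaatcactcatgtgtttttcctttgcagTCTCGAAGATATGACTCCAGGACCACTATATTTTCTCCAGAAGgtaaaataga

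The second group holds exons whose skipping shifts the reading frame and which were called in comparisons that include UPF1 knockdown.
PSMA3 exon 6 (chr14:58260948-58261020, plus strand): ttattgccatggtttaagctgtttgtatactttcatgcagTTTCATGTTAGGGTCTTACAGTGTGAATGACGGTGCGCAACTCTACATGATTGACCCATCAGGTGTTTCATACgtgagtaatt
PSMF1 exon 3 (chr20:1127426-1127508, plus strand): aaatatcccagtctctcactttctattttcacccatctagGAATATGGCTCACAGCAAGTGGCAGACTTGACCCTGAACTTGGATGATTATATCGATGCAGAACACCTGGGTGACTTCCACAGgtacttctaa
PSMB4 exon 4 (chr1:151400764-151400845, plus strand): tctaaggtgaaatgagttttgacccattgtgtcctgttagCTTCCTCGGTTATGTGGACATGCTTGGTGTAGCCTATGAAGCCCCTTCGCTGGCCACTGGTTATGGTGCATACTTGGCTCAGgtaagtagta
PSMC3 exon 9 (chr11:47420631-47420727, minus strand): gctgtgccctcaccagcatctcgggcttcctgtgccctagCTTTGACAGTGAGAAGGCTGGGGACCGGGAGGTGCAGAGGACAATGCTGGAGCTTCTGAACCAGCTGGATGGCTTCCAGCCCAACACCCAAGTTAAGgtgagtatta

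An event counts the reads that fit a form with the exon or intron (inclusion reads, which come from its junctions and its body) and those that fit the form without it (skipping reads, from 1 junction). The inclusion level is the share of the included form after each count is divided by the length from which it can arise. Read counts summed over skipped exon events were 25938092 to 40637076 per library, where a read is counted at every event it fits. Of these, proteasome events took 0.692%, 0.658% and 0.606% in the siSFSWAP libraries, against 0.829%, 0.790% and 0.773% in the siNT libraries. The targets of the siRNAs followed the labels. SFSWAP had 21.3, 32.0 and 19.1 scaled RPM (reads at its best covered exon, per library size after scaling) in siSFSWAP libraries, against 64.9, 69.7 and 61.7 in siNT libraries, and UPF1 had 43.1, 49.1 and 66.3 in siNT/siUPF1 libraries, against 198.6, 213.3 and 153.2 in siNT libraries. Of the markers listed for the line, VIM and KRT8 were read in all 12 libraries, whereas KRT18, NEFM and PAX2 had no event, nor had the markers of other cell types, PTPRC, ALB and COL1A1, so the check of the cell type was partial. Each table lists 3 values per group without a replicate number, so libraries are called by their place in that list. Within each table, libraries at the same place of the siSFSWAP and siNT lists deviated from their group means together (correlations over exons of 0.15 to 0.41 and over genes of 0.13 to 0.48). At unlike places the correlations were -0.25 to 0.06 over exons and -0.44 to 0.08 over genes. Between siNT/siUPF1 and siNT libraries, unlike places reached 0.42 over exons, so a correlation of this size does not by itself mark a shared replicate. A fit with list place as a block, added after seeing the data, is given where it changes a call or a count. In it the place stands in for a replicate number. Nothing in the files names a batch.

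Knockdown of SFSWAP alone gave large shifts toward skipping at exons of PSMD11, PSMC1 and PSMG1, and its calls toward inclusion were small or rested on few skipping reads. A quasi-binomial test with a dispersion moderated across all events called 22 of the 159 proteasome events it could test, 15 with lower and 7 with higher inclusion after siSFSWAP, at an adjusted p of at most 0.05. That is a share of 13.8%, against 12% of all 33839 events. Over all events, 4.21% were called with lower inclusion and 7.76% with higher inclusion. Since several annotated forms of an exon are counted against 1 skipping junction, the 22 events stand for 11 skipping junctions in 9 genes: PSMD11, PSMC1, PSMG1, PSMA4, PSME3, PSMD14, PSMD12, PSMD4 and PSMD6. Limma on log2 odds called 14 of them, and without the filter on low counts 1 was called. With list place as a block all 22 were among 25 called, against 14.4% of all events. The median log2 odds ratio of inclusion over the 159 events was 0.305, against 0.266 over all events.

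The clearest change was at PSMD11, a non-ATPase subunit of the 19S lid. Its exon 11, 36 nt long, was skipped in 61, 42 and 77 reads in the siSFSWAP libraries, against 0, 1 and 0 reads in the siNT libraries. Inclusion reads stood beside them at 378, 413 and 278 in siSFSWAP libraries and at 335, 459 and 485 in siNT libraries. Near-complete inclusion in control cells thus gave way to a mean inclusion level of 80.8% ± 7.69, against 99.9% ± 0.173 in siNT libraries (SD, n = 3 each), and the groups did not overlap. The odds of skipping were 215-fold higher by read count, with a 95% exact counting interval of 38.0 to 8560 that covers counting error only, since the siNT group had 1 skipping read (adjusted p = 2.88e-12). The same exon had the same direction in UPF1-depleted cells: 69, 69 and 32 skipping reads in siSFSWAP/siUPF1 libraries, against 1, 3 and 1 in siNT/siUPF1 libraries, a 45.7-fold difference in odds (log2 odds ratio -5.52, adjusted p = 9.23e-11). A longer form of 65 nt, which begins at an AG within the printed intron, had the lowest p of all proteasome events (adjusted p = 2.24e-12), was counted against the same skipping reads and was listed only in the table without siUPF1. Skipping of the 36-nt exon keeps the frame and leaves 410 of the 422 codons.

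PSMC1, one of the ATPases at the base of the 19S particle, had the next lowest p. Its exon 5, 186 nt long, had 26, 24 and 57 skipping reads in siSFSWAP libraries, against 0, 1 and 3 in siNT libraries. In the siSFSWAP libraries inclusion was 91.4%, 92.0% and 82.2%, against 100%, 99.7% and 99.2% in siNT libraries, without overlap. The odds of skipping were 33.3-fold higher (log2 odds ratio -5.06, adjusted p = 3.45e-08). In the UPF1-depleted pair, skipping reads were 19, 47 and 7 in siSFSWAP/siUPF1 libraries, against 0, 5 and 3 in siNT/siUPF1 libraries, a 12.1-fold difference in odds (adjusted p = 3.08e-04). The call in UPF1-depleted cells was lost without the second siSFSWAP/siUPF1 library (adjusted p = 0.0873). In each background 5 called events share this skipping junction, because the exon is listed with several starts. Skipping leaves 378 of 440 codons in frame. PSMC1 has 13 pseudogenes by name.

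PSMG1, an assembly chaperone of the alpha ring, had an exon that control cells already skipped in part. Its exon 4, 63 nt long, is a coding exon of the reference transcript and also stands on the study's list of predicted decoy exons. Inclusion was 71.4%, 74.8% and 58.2% in siSFSWAP libraries, against 87.6%, 94.5% and 79.7% in siNT libraries. All siSFSWAP libraries lay below all siNT libraries, with means of 68.1% ± 8.80 and 87.3% ± 7.38 (SD, n = 3 each; log2 odds ratio -1.69 ± 0.35 SE, adjusted p = 1.73e-04). In UPF1-depleted cells inclusion was 72.7%, 57.0% and 78.7% in siSFSWAP/siUPF1 libraries, against 88.7%, 80.3% and 73.0% in siNT/siUPF1 libraries. These groups overlapped, and the change was smaller in size (log2 odds ratio -0.97 ± 0.31 SE, adjusted p = 0.0396), with the call lost without the first or the second siSFSWAP/siUPF1 library or the first siNT/siUPF1 library (adjusted p up to 0.505). A test of the difference between the backgrounds did not call it (adjusted p = 0.980). Called forms of 43 and 48 nt share the skipping reads. Skipping leaves 267 of 288 codons in frame.

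**Figure D1:**
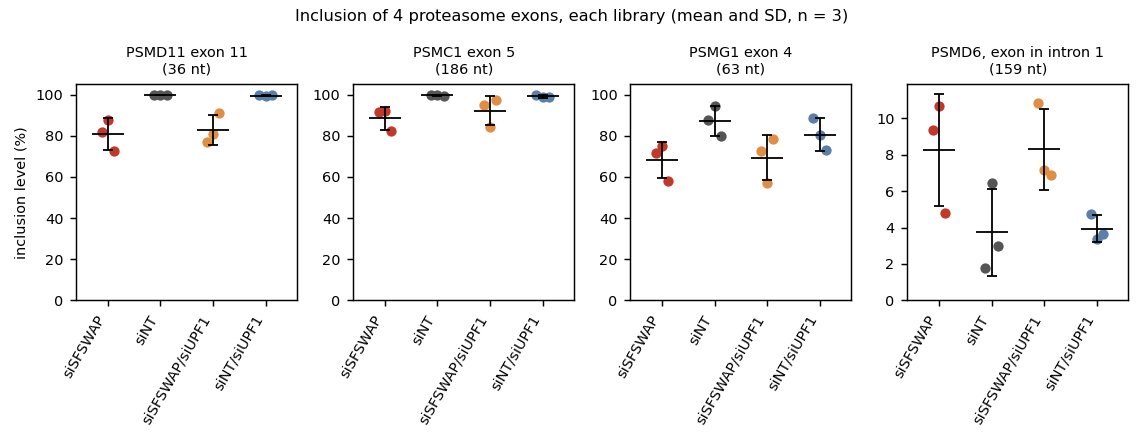
Inclusion level in percent of PSMD11 exon 11, PSMC1 exon 5, PSMG1 exon 4 and the PSMD6 exon within intron 1, for each of the 3 libraries of the 4 groups (points), with the mean and SD (bars). The siSFSWAP points of the first 3 exons lie below all siNT points, with mean inclusion of 80.8%, 88.5% and 68.1%, and the PSMD6 panel has an axis of its own.

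In these exons the libraries of a group differed among themselves. The third siSFSWAP library had the lowest inclusion of its group at PSMD11, PSMC1 and PSMG1, and the second siSFSWAP/siUPF1 library had the lowest at PSMC1 and PSMG1. The calls of the PSMD11, PSMC1 and PSMG1 exons in the comparison of siSFSWAP with siNT held when any 1 of the 6 libraries was left out (adjusted p at most 0.0322). Without the filter on low counts all 3 were lost (adjusted p of 0.0559, 0.0769 and 0.234 in that order), and with limma on log2 odds the PSMG1 exon was lost (adjusted p = 0.204).

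Other exons were skipped more often after siSFSWAP, but rarely. PSMA4, an alpha ring subunit, had 10, 4 and 11 reads that skip its 43-nt exon 3 in siSFSWAP libraries, against 0, 1 and 1 in siNT libraries. This is a 15.1-fold difference in odds, with a counting interval of 3.76 to 132 (adjusted p = 0.0135). The call was lost without the first or the third siSFSWAP library or the first siNT library (adjusted p up to 0.0804). Skipping shifts the frame and leaves 23 codons before a stop that lies 516 nt before the last exon junction. In UPF1-depleted cells the exon was skipped in 5, 11 and 6 reads in siSFSWAP/siUPF1 libraries, against 0, 2 and 1 in siNT/siUPF1 libraries (adjusted p = 0.0618, or 0.0303 with list place as a block).

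PSME3, which encodes the nuclear activator PA28 gamma, had 7, 2 and 4 reads that skip its 33-nt exon 2 in siSFSWAP libraries, against none in the siNT libraries. By the floor of 3 reads over a group, the odds of skipping were at least 6.09-fold higher (adjusted p = 0.0259), with inclusion still at 98.9% ± 0.580 in siSFSWAP libraries. Without the first, the second or the third siNT library the call was lost (adjusted p up to 0.0739), and without the first or the third siSFSWAP library too few skipping reads remained for a test. The UPF1-depleted pair had 2, 4 and 2 such reads in siSFSWAP/siUPF1 libraries, against none in siNT/siUPF1 libraries, too few to be tested. Skipping keeps the frame and leaves 243 of 254 codons.

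PSMD14, the deubiquitinase of the 19S lid, skipped its 120-nt exon 5 (chr2:161367784-161367903) in 9, 0 and 11 reads in siSFSWAP libraries, against 2, 0 and 0 in siNT libraries. The groups overlapped, the odds differed 13.4-fold (counting interval 3.24 to 118, adjusted p = 0.0331), and the call was lost without the first or the third siSFSWAP library or the second or the third siNT library (adjusted p up to 0.221). PSMG1 also skipped its 107-nt exon 2 (chr21:39181772-39181878) in 7, 7 and 6 reads in siSFSWAP libraries, against 1, 0 and 2 in siNT libraries. That call, 8.54-fold in odds (counting interval 2.52 to 45.0, adjusted p = 0.0485), was lost without any 1 of the 6 libraries (adjusted p up to 0.147).

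The other 4 skipping junctions moved the other way, toward inclusion. PSMD6 is a lid subunit, and the called exon is an additional one of 159 nt within intron 1 of its reference transcript (chr3:64022643-64022801, minus strand), annotated in another transcript and listed by the study as a predicted decoy. Its inclusion was 9.36%, 10.7% and 4.80% in siSFSWAP libraries, against 1.79%, 6.43% and 2.96% in siNT libraries. The groups overlapped at the third siSFSWAP and the second siNT library (log2 odds ratio 1.27 ± 0.41 SE, adjusted p = 0.0250), and the call was lost without the first or the second siSFSWAP or the first or the third siNT library (adjusted p up to 0.226). In UPF1-depleted cells inclusion was 10.9%, 7.18% and 6.87% in siSFSWAP/siUPF1 libraries, against 4.77%, 3.39% and 3.67% in siNT/siUPF1 libraries. These groups did not overlap, but the adjusted p was 0.169.

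PSMD4, a ubiquitin receptor of the 19S particle, was called at 2 exons. Its 141-nt exon 2 (chr1:151262161-151262301) was skipped in no read in siSFSWAP libraries, against 4, 8 and 3 reads in siNT libraries. By the same floor the odds of skipping were at least 4.99-fold lower (adjusted p = 0.0349), and 4 listed forms of the exon share these reads. Its 69-nt exon 5 (chr1:151265166-151265234) was skipped in 21, 21 and 29 reads in siSFSWAP libraries, against 69, 27 and 38 in siNT libraries. Inclusion was thus 97.8% ± 0.358 in siSFSWAP libraries and 95.5% ± 2.47 in siNT libraries (SD, n = 3 each), with overlapping groups (log2 odds ratio 1.00 ± 0.35 SE, adjusted p = 0.0405). The UPF1-depleted pair gave 11, 31 and 28 skipping reads in siSFSWAP/siUPF1 libraries, against 45, 70 and 39 in siNT/siUPF1 libraries (adjusted p = 0.0848, or 0.0221 with list place as a block). PSMD12, a lid subunit, had no read that skips its 78-nt exon 10 (chr17:67342186-67342263) in siSFSWAP libraries, against 8, 1 and 12 in siNT libraries, at least 5.50-fold lower in odds (adjusted p = 0.0233). All 3 of these calls were lost without the first, the second or the third siSFSWAP library or the first siNT library, with adjusted p up to 0.128 for PSMD4 exon 2, 0.521 for PSMD4 exon 5 and 0.119 for PSMD12. Without the second siNT library for PSMD4 exon 2, or the third for PSMD12, too few skipping reads remained for a test.

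The 7 skipping junctions called with more skipping after siSFSWAP had a median exon length of 63.0 nt, against 111 nt over the 84 proteasome junctions tested and 116 nt over all 19376 junctions tested. Their median upstream intron was 298 nt, against 786.5 nt over the proteasome junctions and 1859 nt over all junctions. The median downstream intron was 263 nt, against 1069 nt and 1842 nt. Of the 7 exons, 5 had a length that is a multiple of 3, against 42.9% of the proteasome and 43.0% of all junctions. In the 20 intron bases that end 3 bases before the exon, the median pyrimidine share was 75.0%, against 70.0% for both other sets. The 4 junctions called with higher inclusion had a median exon length of 109.5 nt, median introns of 1408 nt upstream and 885.5 nt downstream and a median pyrimidine share of 77.5%, and all 4 exons had a length that is a multiple of 3. These are descriptions of 7 and 4 exons with no test.

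In UPF1-depleted cells, knockdown of SFSWAP again gave calls in both directions, but partly at other exons. The test called 14 of 185 proteasome events, 7 higher and 7 lower in siSFSWAP/siUPF1 than in siNT/siUPF1 libraries, or 7.57%, against 7.52% of all 34006 events (4.05% higher and 3.47% lower). They stand for 6 skipping junctions. Limma on log2 odds with a pseudocount of 0.5 called 0 of the 14. In the quasi-binomial test 49 proteasome events (26.5%) had an unadjusted p under 0.05, against 21.0% of all events. With list place as a block all 14 were among 28 called, 17 higher and 11 lower, against 11.3% of all events, with events of PSMA4, PSMC5, PSMC6 and PSMD4 added. With lower inclusion these were the PSMD11, PSMC1 and PSMG1 exons described above, and with higher inclusion they were exons of PSMB4, PSMC3 and PSMF1.

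PSMB4, a beta ring subunit, skipped its 82-nt exon 4 in 0, 1 and 0 reads in siSFSWAP/siUPF1 libraries, against 3, 22 and 9 in siNT/siUPF1 libraries. The odds of skipping were 34.0-fold lower, with a counting interval of 5.68 to 1380 (adjusted p = 0.00846). The second siNT/siUPF1 library holds most of these reads, and the call was lost without it and without the first or the third siSFSWAP/siUPF1 library (adjusted p up to 0.150). In the pair with UPF1, skipping reads were 1, 0 and 0 in siSFSWAP libraries, against 1, 1 and 9 in siNT libraries (adjusted p = 0.164). Longer forms of 132 and 154 nt share the reads. Skipping leads to a stop after 177 of 264 codons, 166 nt before the last junction.

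PSMC3, another ATPase of the 19S base, skipped its 97-nt exon 9 in 0, 1 and 1 reads in siSFSWAP/siUPF1 libraries, against 9, 31 and 2 in siNT/siUPF1 libraries. The odds were 16.1-fold lower, with a counting interval of 4.18 to 137 (adjusted p = 0.0166), and the call was lost without any 1 siSFSWAP/siUPF1 library or the second siNT/siUPF1 library (adjusted p up to 0.329). With UPF1 present, skipping reads were 1, 3 and 6 in siSFSWAP libraries, against 6, 6 and 20 in siNT libraries (adjusted p = 0.227). A stop follows after 295 of 439 codons, 224 nt before the last junction.

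PSMF1 skipped its 83-nt exon 3 in 6, 6 and 8 reads in siSFSWAP/siUPF1 libraries, against 30, 21 and 18 in siNT/siUPF1 libraries. No library overlapped, and the odds of skipping were 3.20-fold lower (log2 odds ratio of inclusion 1.68 ± 0.59 SE, adjusted p = 0.0412). Forms of 179 and 333 nt with a later exon end share the reads. The call was lost without any 1 siSFSWAP/siUPF1 library or the first siNT/siUPF1 library (adjusted p up to 0.186). Without UPF1 knockdown the counts were 11, 2 and 10 in siSFSWAP libraries, against 5, 3 and 5 in siNT libraries (adjusted p = 0.629). The difference between the 2 backgrounds was a log2 odds ratio of 2.37 ± 0.88 SE with an adjusted p of 0.980. The stop after skipping lies after 99 of 271 codons, 381 nt before the last junction.

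Knockdown of UPF1 alone was followed by setting siNT/siUPF1 against siNT libraries. The 2 groups come from separate tables, so the table and the knockdown cannot be told apart, and only events listed in both were tested. The comparison gave 5 calls among 157 proteasome events, all with lower inclusion in siNT/siUPF1 than in siNT libraries. That is 3.18%, against 1.17% of all 28261 events, with 0.396% called with lower and 0.778% with higher inclusion. Whether impaired decay lies behind the calls was not tested. They stand for 2 skipping junctions, both of exons whose skipping shifts the frame. PSMA3, an alpha ring subunit, skipped its 73-nt exon 6 in 12, 9 and 13 reads in siNT/siUPF1 libraries, against 1, 1 and 0 in siNT libraries. The odds of skipping were 18.3-fold higher, with a counting interval of 4.68 to 157 (adjusted p = 0.0454). The stop lies after 152 of 255 codons, 191 nt before the last junction. In siSFSWAP/siUPF1 libraries the same exon was skipped in 1, 5 and 0 reads, fewer than in each siNT/siUPF1 library (adjusted p = 0.140), and in siSFSWAP libraries in 1, 2 and 0 reads.

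PSMF1 exon 3 was the other. Its 30, 21 and 18 skipping reads in siNT/siUPF1 libraries stood against 5, 3 and 5 in siNT libraries, 5.02-fold in odds (log2 odds ratio of inclusion -2.33 ± 0.71 SE, adjusted p = 0.0399). The PSMA3 call was lost without any 1 siNT library or the first or the third siNT/siUPF1 library (adjusted p up to 0.185), and the PSMF1 call without any 1 siNT library or the first siNT/siUPF1 library (adjusted p up to 0.166). All 5 calls were lost with limma on log2 odds (0 calls). PSMF1 and PSMA3 had most skipping reads in the siNT/siUPF1 group among the 4 groups, which follows in part from their being picked by these calls. UPF1 reads themselves were 59.8, 68.9 and 91.0 scaled RPM in siSFSWAP/siUPF1 libraries, against 43.1, 49.1 and 66.3 in siNT/siUPF1 libraries (log2 fold change 0.48, adjusted p = 0.295), and the part of this in the lower skipping of frame-shifting exons was not tested.

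**Figure D2:**
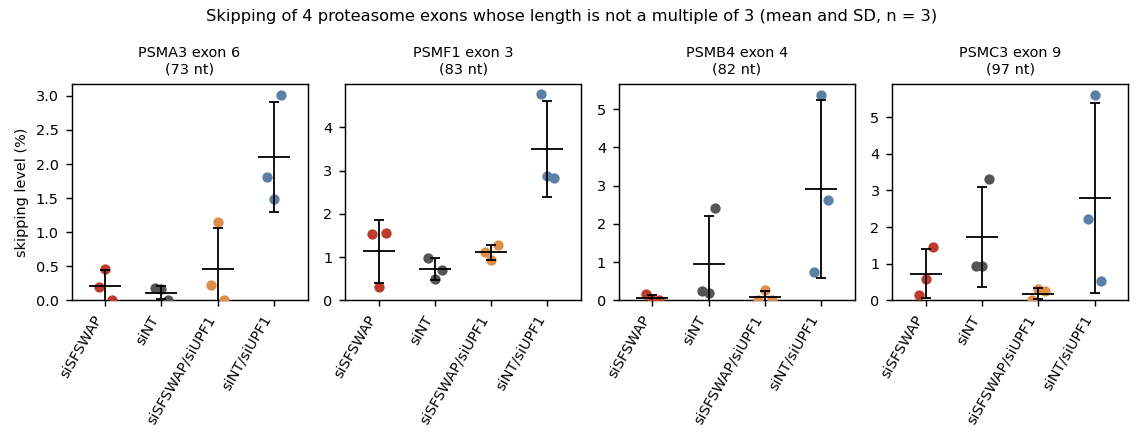
Skipping level, 100% minus the inclusion level, of PSMA3 exon 6, PSMF1 exon 3, PSMB4 exon 4 and PSMC3 exon 9 in each library of the 4 groups (points), with the mean and SD (bars). The highest mean of each panel is that of siNT/siUPF1, at 2.10%, 3.49%, 2.90% and 2.78%, and the second siNT/siUPF1 library is the highest point of PSMB4 and PSMC3. The exons were taken from calls with more skipping in siNT/siUPF1 than in another group, so this ranking follows in part from the choice.

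Exons were also set out by whether their length is a multiple of 3, a description chosen, with its subset of reference exons, after the values were seen. Over all proteasome events, 61 of 101 not a multiple of 3 and 28 of 56 others were lower in siNT/siUPF1 than in siNT libraries, with medians of the log2 odds ratio of -0.33 and -0.0025. In siSFSWAP/siUPF1 against siNT/siUPF1 libraries, 64 of 113 events not a multiple of 3 were higher and 35 of 72 others were lower, with medians of 0.52 and 0.013. These counts lie near the shares over all events tested in that comparison. There, 11179 of 20970 not a multiple of 3 were higher and 49.8% of the others were lower. The split of proteasome events was wider in the subset of reference exons. Among exons of the reference transcripts with reference neighbours, counted once each, 28 of 35 whose length is not a multiple of 3 had lower inclusion in siNT/siUPF1 than in siNT libraries, with a median log2 odds ratio of -0.95. Among those with a length that is a multiple of 3, 7 of 22 were lower, with a median of 0.32. Over all events tested, which are not limited to reference exons, 44% of those not a multiple of 3 and 38.6% of the others were lower. In siSFSWAP/siUPF1 against siNT/siUPF1 libraries, 25 of 32 exons that are not a multiple of 3 had higher inclusion, with a median of 1.38, or 1.25 when counts of 0 are set to 3 reads. Of the 24 that are a multiple of 3, 16 had lower inclusion, with a median of -0.87, against medians of 0.12 and 0.0044 over all events of each kind. Both comparisons use the siNT/siUPF1 libraries, so they are not separate evidence. An exon entered only with 10 skipping reads over both groups together, and siNT/siUPF1 libraries could supply most of them. Exons not a multiple of 3 numbered 35 and 32 in these comparisons, against 30 and 22 in those given next. The medians may thus depend in part on this filter, and how far was not tested. In siSFSWAP against siNT libraries the medians were 0.28 for 30 exons and 0.44 for 26 exons. In siSFSWAP/siUPF1 against siSFSWAP libraries they were 0.089 and 0.40 for 22 exons each.

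**Figure D3:**
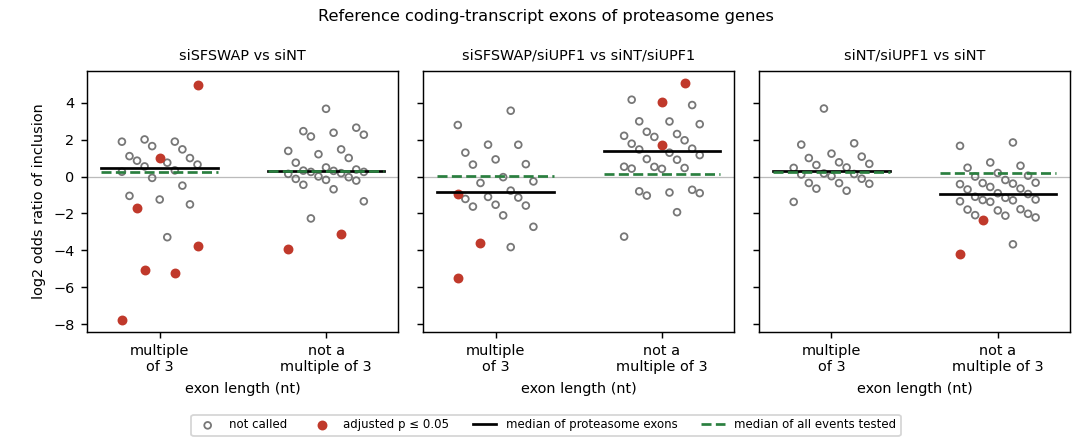
Log2 odds ratio of inclusion of reference-transcript exons of proteasome genes, first group over second, split by whether the exon length is a multiple of 3, in 3 comparisons (points, filled where the adjusted p is at most 0.05). Solid lines are medians of these exons and dashed lines medians of all events tested in all genes, reference exons or not. The solid line for exons not a multiple of 3 lies at -0.95 for siNT/siUPF1 vs siNT and at 1.38 for siSFSWAP/siUPF1 vs siNT/siUPF1, where all proteasome events not a multiple of 3 had medians of -0.33 and 0.52. In these comparisons exons could pass the read filter through skipping reads of the siNT/siUPF1 group.

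No proteasome exon was called between siSFSWAP/siUPF1 and siSFSWAP libraries, where 98 events were tested and 4 had an unadjusted p under 0.05. The share of all events called was 0.0816%. Nor did the SFSWAP effect differ by UPF1 background at any of 189 events (5 with an unadjusted p under 0.05), against 0.00771% of all events. The differing sets of calls in the 2 backgrounds are therefore not shown to be different effects.

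The beta subunits with catalytic activity gave few skipping reads. The best covered PSMB5 exon, 307 nt, was included at 99.01% in siSFSWAP and 98.83% in siNT libraries (adjusted p = 0.95). PSMB6, PSMB7 and PSMB10 had too few skipping reads at their best covered exons to be tested, with 1 against 0, 1 against 2 and 4 against 1 skipping reads over the 3 siSFSWAP and 3 siNT libraries. PSMD2, a scaffold and ubiquitin receptor of the 19S base, skipped its 225-nt exon (chr3:184301847-184302071) in 10 reads over the siSFSWAP libraries, against 34 over the siNT libraries (adjusted p = 0.101). ADRM1, a ubiquitin receptor outside the symbol pattern, had a 117-nt exon (chr20:62304461-62304577) with more skipping: inclusion was 72.8% in siSFSWAP against 80.3% in siNT libraries (log2 odds ratio -0.60 ± 0.14 SE, adjusted p = 0.00108) and 71.7% in siSFSWAP/siUPF1 against 81.3% in siNT/siUPF1 libraries (-0.78 ± 0.18 SE, adjusted p = 0.00272). Another ADRM1 exon, of 103 nt (chr20:62308368-62308470), went the other way. It was included at 80.6% in siSFSWAP against 35.2% in siNT libraries (log2 odds ratio 3.03 ± 0.23 SE, adjusted p = 4.51e-20), at 80.8% in siSFSWAP/siUPF1 against 56.7% in siNT/siUPF1 libraries (1.81 ± 0.30 SE, adjusted p = 2.15e-06), and at 56.7% in siNT/siUPF1 against 35.2% in siNT libraries (1.29 ± 0.24 SE, adjusted p = 9.57e-04).

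The study predicted decoy exons, short cassettes within retained introns, and its list, which was read in shortened form, holds exons of 7 proteasome genes. Apart from the PSMD6 and PSMG1 exons, these had low mean inclusion and none was called. A 73-nt exon in PSMC5 intron 1 was included at 1.53% ± 0.391 in siSFSWAP libraries, against 3.89% ± 1.64 in siNT libraries (SD, n = 3 each; adjusted p = 0.207), and at 1.20% in siSFSWAP/siUPF1 against 2.92% in siNT/siUPF1 libraries (adjusted p = 0.284). The exons in PSMA1, PSMB4 and PSMD7 introns had means of 0.196%, 0.563% and 0.516% in siSFSWAP and 0.161%, 0.440% and 0.215% in siNT libraries, none of them called. The exon in PSMD3 was included in no read of the siSFSWAP libraries and in 1 read of the siNT libraries.

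No retained intron of a proteasome gene was called in the fit without a block. Over all introns, 10.4% of 5845 were called between siSFSWAP and siNT libraries, and 9.10% were called with lower retention. None of the 56 proteasome introns tested, in 27 genes, was called, and 5 (8.93%) had an unadjusted p under 0.05, against 22.7% of all introns. The median log2 odds ratio of retention was -0.044 for proteasome introns and -0.25 for all introns, and 29 of the 56 were lower after siSFSWAP. These introns were mostly spliced out: the median retention level was 3.84% in siSFSWAP and 3.57% in siNT libraries, against 5.46% and 7.25% over all introns. The median count, of both forms together, was 314 reads per library and intron, against 111 over all introns. In simulated libraries, the fit with list place as a block called 12 of 98 retention changes of 1 in log2 odds and 47 of 93 of 2. The simulation drew on introns of all genes and held no effect of list place. How well a change could be detected at the proteasome introns was not tested.

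The lowest p belonged to intron 10 of PSME1 (chr14:24138561-24138735), which encodes a subunit of the interferon-inducible activator PA28. It was retained at 6.98%, 4.3% and 4.78% in siSFSWAP libraries, against 13.1%, 7.86% and 11.5% in siNT libraries. The groups did not overlap (log2 odds ratio -0.99 ± 0.35 SE, adjusted p = 0.0722). With list place as a block it was the 1 proteasome intron called (adjusted p = 0.0242), against 12.8% of all introns. Over introns the same-place correlations between siSFSWAP and siNT libraries were only 0.09, 0.01 and 0.17, against -0.17 to 0.09 at unlike places. Next came introns of PSMD3, at 3.99% in siSFSWAP against 5.45% in siNT libraries (adjusted p = 0.135), and of PSMD11, at 6.60% against 10.3% (adjusted p = 0.152). In UPF1-depleted cells none of 50 proteasome introns was called between siSFSWAP/siUPF1 and siNT/siUPF1 libraries (1 with an unadjusted p under 0.05), against 3.57% of all introns. None of 30 was called between siNT/siUPF1 and siNT (1 with an unadjusted p under 0.05), between siSFSWAP/siUPF1 and siSFSWAP (3), or, of 34, for a difference of the SFSWAP effect by background (1). The shares of all introns called there were 0.0659%, 0.166% and 0.0291%.

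**Figure D4:**
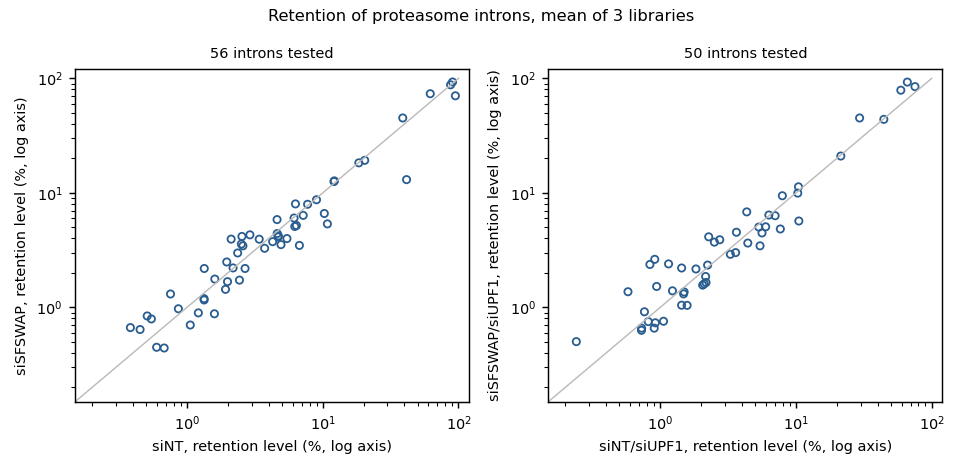
Mean retention level in percent of each proteasome intron tested, siSFSWAP against siNT (left, 56 introns) and siSFSWAP/siUPF1 against siNT/siUPF1 (right, 50 introns), on log axes, where each point is the mean of 3 libraries. Points scatter about the line of equal retention, and no intron passed an adjusted p of 0.05 in the fit without a block.

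The number of reads on proteasome transcripts after siSFSWAP was called lower for 8 of 40 genes and higher for 1, and 1 of the 9 calls, that of PSMD13, held when any 1 library was left out. The tables hold no gene counts, so the inclusion and skipping reads of 1 skipped exon event per gene, the one with most reads, were compared over 9180 genes with limma voom and size factors from median ratios. A shift in splicing at that event moves this count too. Bulk libraries cannot tell apart a smaller share of cells with a transcript and less of that transcript per cell. Of 40 proteasome genes, 33 had a negative log2 fold change between siSFSWAP and siNT libraries, with a median of -0.33, against 50% negative and a median of 0.00044 over all genes. The 9 calls are 22.5% of the genes, against 10.3% of all genes, where 4.91% were called lower and 5.42% higher. With list place as a block 27 were called, 25 lower and 2 higher, against 34.1% of all genes, and the 9 genes were among them.

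PSMD13, a lid subunit, had the lowest p, with 120.8, 110.4 and 97.8 scaled RPM in siSFSWAP libraries, against 205.5, 169.5 and 179.4 in siNT libraries. Its log2 fold change was -0.75 ± 0.16 SE (adjusted p = 0.00730), and it was the only one of the 9 called without any 1 of the 6 libraries (adjusted p at most 0.0334). Among the catalytic beta subunits, PSMB7, which carries the trypsin-like activity, had 449.0, 407.7 and 381.1 scaled RPM in siSFSWAP libraries, against 684.5, 547.8 and 606.5 in siNT libraries (-0.57 ± 0.14 SE, adjusted p = 0.0172). PSMB5, which carries the chymotrypsin-like activity, had 234.3, 199.0 and 158.8 in siSFSWAP libraries, against 357.3, 277.0 and 253.9 in siNT libraries (-0.59 ± 0.16 SE, adjusted p = 0.0235). All 3 genes were lower in each siSFSWAP library than in each siNT library.

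The other genes called lower were PSMB2, a beta ring subunit (log2 fold change -0.70, adjusted p = 0.0205), PSMD7, a lid subunit (-0.72, adjusted p = 0.0205), PSME3 (-0.63, adjusted p = 0.0223), PSMC2, an ATPase of the 19S base (-0.57, adjusted p = 0.0335), and PSMD12 (-0.61, adjusted p = 0.0419). PSME1 was the gene called higher, with 58.1, 57.2 and 47.4 scaled RPM in siSFSWAP libraries, against 35.4, 43.5 and 19.1 in siNT libraries (log2 fold change 0.82 ± 0.23 SE, adjusted p = 0.0273). By class, the median log2 fold change was -0.46 for 7 beta ring genes, -0.39 for 7 alpha ring genes, -0.33 for 5 ATPases and -0.31 for 13 PSMD genes. It was -0.030 for the 4 activators, whose range ran from -0.63 to 0.82. Leaving out 1 library left 2 to 7 of the calls: 2 without the second siSFSWAP library, and 3 without the third siSFSWAP or the first siNT library. POMP, a maturation factor of the core outside the symbol pattern, was also lower (-0.68, adjusted p = 0.0275). ADRM1 was lower in siSFSWAP than in siNT libraries (-0.89, adjusted p = 0.00875) and in siNT/siUPF1 than in siNT libraries (-0.96, adjusted p = 0.0115).

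**Figure D5:**
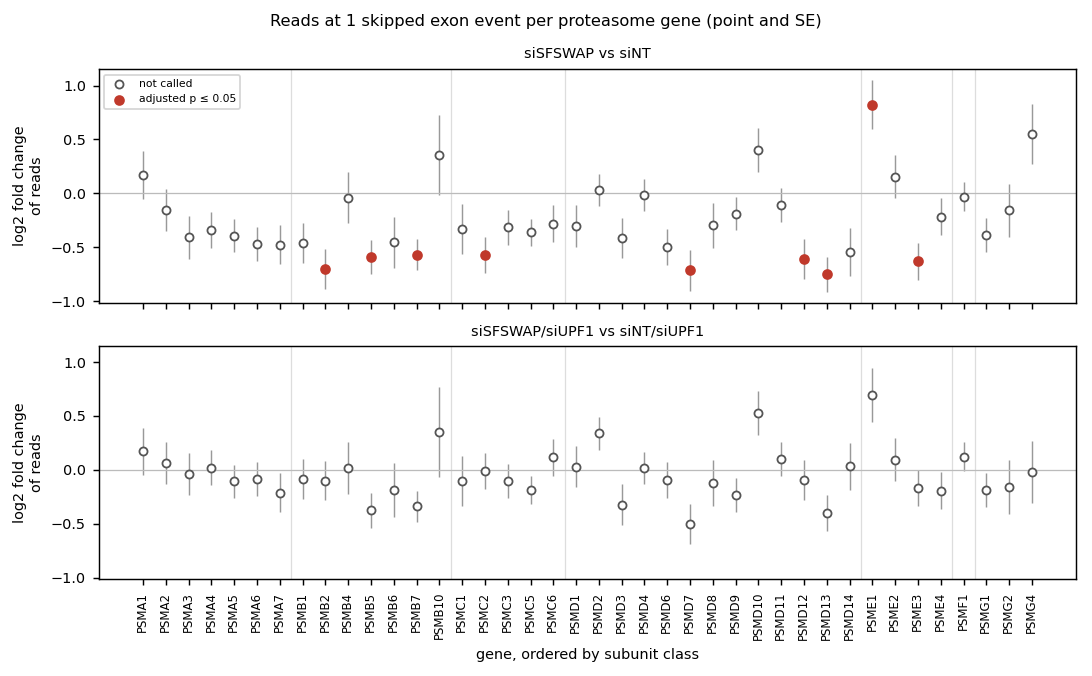
Log2 fold change of reads at 1 skipped exon event per gene for 40 proteasome genes in order of subunit class, siSFSWAP over siNT (upper) and siSFSWAP/siUPF1 over siNT/siUPF1 (lower), with the SE as bars and filled points where the adjusted p is at most 0.05. In the upper panel 33 of 40 points lie below 0 and 9 are filled, and in the lower panel 25 lie below 0 and none is filled, in the fit without a block.

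In UPF1-depleted cells the call depended on whether list place was taken as a block. Without it none of the 40 genes was called between siSFSWAP/siUPF1 and siNT/siUPF1 libraries by limma voom, with 7 at an unadjusted p under 0.05, against 0.861% of all genes called. The median was -0.089, and 25 of 40 were negative. The lowest p belonged to PSME1 (log2 fold change 0.70, adjusted p = 0.204), PSMD7 (-0.50, adjusted p = 0.230), PSMD10, an assembly chaperone of the 19S base (0.53, adjusted p = 0.249), PSMD13 (-0.40, adjusted p = 0.290) and PSMB7 (-0.34, adjusted p = 0.301). A test of the difference between the backgrounds called 0% of 9180 genes, with 2 proteasome genes at an unadjusted p under 0.05 and a lowest adjusted p of 0.713 among them. With list place as a block 8 of the 40 were called between siSFSWAP/siUPF1 and siNT/siUPF1 libraries, against 15% of all genes: PSMB5, PSMB7, PSMD3, PSMD7 and PSMD13 lower, from -0.51 to -0.32, and PSMD2, PSMD10 and PSME1 higher, from 0.33 to 0.69. With the block the test of the difference between the backgrounds called 8 genes, against 6.02% of all genes. So none of these genes is shown to be unaffected in UPF1-depleted cells, or to respond alike in both backgrounds.

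Between siNT/siUPF1 and siNT libraries 2 genes were called, both lower: PSMD2 (log2 fold change -0.55, adjusted p = 0.0389) and PSMB5 (-0.57, adjusted p = 0.0396). Over all genes 5.75% were called and 3.24% called lower. PSMD2 had 126.0, 146.9 and 119.7 scaled RPM in siNT/siUPF1 libraries, against 217.9, 186.3 and 172.1 in siNT libraries, without overlap. The call of PSMD2 was lost without the first or the second siNT or the first or the third siNT/siUPF1 library (adjusted p up to 0.184), and that of PSMB5 without the first or the second siNT library or any 1 siNT/siUPF1 library (adjusted p up to 0.210). Neither was called when library sizes were left unscaled, a setting that moves the median of all genes by 0.14. Without the third siNT library 8 proteasome genes were called. All 7 beta ring genes had negative fold changes, from -0.66 to -0.31. So did 11 of 13 PSMD genes, 6 of 7 alpha ring genes and 33 of all 40 proteasome genes (median -0.155), against 49.3% of all genes. Of the beta ring genes, PSMB10 had few reads, with means of 4.72 scaled RPM in siNT/siUPF1 and 6.91 in siNT libraries. Between siSFSWAP/siUPF1 and siSFSWAP libraries no proteasome gene was called (6 with an unadjusted p under 0.05), against 0.0109% of all genes. The lowest p there belonged to PSMD9 (log2 fold change -0.46), PSME1 (-0.58), PSMD12 (0.44), PSMB5 (-0.36) and PSMD14 (0.49), all with an adjusted p of 0.431.

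The remaining genes of the ubiquitin-proteasome pathway, taken from a list of enzymes, receptors and cofactors outside the symbol pattern, had calls in both directions. Of 329 skipped exon events in 39 genes, 44 were called higher and 8 lower in siSFSWAP than in siNT libraries, or 13.4% and 2.43%, against 7.76% and 4.21% of all events. The higher calls lay in 10 genes and the lower calls in 4. Of 315 events in 40 genes, 38 were higher and 6 lower in siSFSWAP/siUPF1 than in siNT/siUPF1 libraries, or 12.1% and 1.9%, against 4.05% and 3.47% of all events. Those calls lay in 9 and 5 genes. Between siNT/siUPF1 and siNT libraries 13 of 267 were higher and 1 was lower, or 4.87% and 0.375%, against 0.778% and 0.396% of all events. The 13 lay in 5 genes. Events of a gene can share a skipping junction, and junctions were not counted for this list. Of their retained introns, 3 of 51 (5.88%) were called lower after siSFSWAP, against 9.10% of all introns, in STUB1, a ubiquitin ligase, and UBXN6, a cofactor of the ATPase VCP, and none higher.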

How the data were processed

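PolyA RNA from 12 libraries of 293A-TOA cells (4 groups of 3) was sequenced by the authors, who trimmed reads with cutadapt 1.9.1, aligned them with STAR 2.7 to GRCh38.p8 with RefSeq transcripts and predicted decoy exons, and counted events with rMATS from junction and exon body reads. The deposited tables hold raw read counts per event for the included and the excluded form, with the effective length of each form as another kind of value; the authors' p-values, FDR and inclusion differences were not used. All per-sample columns were assigned. The groups with and without siUPF1 are in separate tables, and within a table the study's definition of the inclusion difference gave which columns are siSFSWAP and which are siNT; SFSWAP reads were lower in those taken as siSFSWAP.

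An event was tested when it averaged 10 reads per library and each form had 10 reads over the libraries compared. Skipping of an exon or retention of an intron was compared by quasi-binomial regression of the 2 counts with group as the factor, with dispersions moderated by limma 3.58.1 (floor 1), a two-sided F test and Benjamini-Hochberg adjustment over all events, at 0.05. The difference of the SFSWAP effect between UPF1 backgrounds was tested in a fit of 12 libraries. A log2 odds ratio is the first group over the second. Against 0 reads, odds were bounded with 3 reads over the group, and with 1 to 3 reads exact 95% counting intervals were given. Gene reads were compared with limma voom over 12 libraries and 9180 genes, which replaced the count model planned, since the counts are stored as joined lists. Annotation was GENCODE 44. R 4.3.3, Python 3.11.15, pandas 2.3.3 and scipy 1.17.1 were used, and the scripts were tested on simulated data.

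The exons named are, for each gene, those of the event with the lowest p where its adjusted p was at most 0.05, shown at the reference exon that shares its skipping junction, together with the other called junctions. To these were added the best covered exon of PSMB5, PSMB6, PSMB7, PSMB10, PSMD2, PSMD4 and ADRM1, every predicted decoy, every gene whose reads were called, and the 5 with the lowest p where none was. The ADRM1 exon of 103 nt lies outside this rule and was named for its result. Members and lists were chosen with earlier results of these data known. With 3 libraries against 3, an exact permutation test cannot go below p = 0.10. Alternatives were list place as a block within each table, other filters, limma on log2 odds, a dispersion trend or a robust prior, 1 event per exon or junction, a minimum difference, other library sizes, and leaving out each library.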

Additional observations from a re-analysis of the deposited data

Results flagged for a closer look

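With list place as a block, the log2 fold change of gene reads after SFSWAP knockdown differed between the UPF1 backgrounds for 8 of 40 proteasome genes (limma voom, adjusted p of 0.00123 to 0.0431), against 6.02% of all genes. The fold change of siSFSWAP/siUPF1 over siNT/siUPF1 minus that of siSFSWAP over siNT was 0.60 for PSMB2, 0.59 for PSMD14, 0.56 for PSMC2, 0.52 for PSMD12, 0.47 for PSME3, 0.41 for PSMD6, 0.39 for PSMA6 and 0.37 for PSMA4. Without the block the same test called 0 genes, with 2 proteasome genes at an unadjusted p under 0.05.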

How the results depend on the processing

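A replicate block by list place, added after seeing the data, assumes that the place is the replicate number, which the tables do not state. It gave 25 called exons for siSFSWAP vs siNT, 28 for siSFSWAP/siUPF1 vs siNT/siUPF1, 1 retained intron for siSFSWAP vs siNT, and 27 and 8 genes by gene reads. The same block in limma on log2 odds called 0 exons in both, and it recovered 0 of 88 simulated 4-fold changes, so nothing is read from its 0 calls. The quasi-binomial block recovered 15 of the 88 and 3 of 89 simulated log2 changes of 1. The simulated libraries held no effect of list place, so these recoveries cannot judge either block on the real libraries. Between siNT/siUPF1 and siNT, and between siSFSWAP/siUPF1 and siSFSWAP, same-place correlations were not all positive, so no block was fitted. No result reversed. Calls among proteasome exons numbered 22 for siSFSWAP vs siNT, 14 for siSFSWAP/siUPF1 vs siNT/siUPF1 and 5 for siNT/siUPF1 vs siNT, and the alternatives are given in that order. Without the filter on low counts they were 1, 0 and 0, where 115 of all 115209 events were called in the first comparison; the cause was not tested. With limma on log2 odds they were 14, 0 and 0 at a pseudocount of 0.5 and 13, 1 and 0 at a pseudocount of 1, with a further demand that inclusion levels differ by 0.1 or more they were 11, 6 and 0, and with 1 event per skipping junction, added after seeing the data, they were 11, 6 and 2. The third comparison had 2 calls at a mean of 30 reads, 0 with a dispersion trend and 3 with 1 event per exon. Leaving out 1 library gave 11 to 23, 4 to 25 and 0 to 5 calls, the fewest without the first or the third siSFSWAP or the first siNT library, without the second siSFSWAP/siUPF1 library, and without the first or the second siNT or the first siNT/siUPF1 library, and the 25 without the third siNT/siUPF1 library. For siSFSWAP/siUPF1 vs siSFSWAP, leaving out 1 library gave 0 to 1 exon.

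Retained introns, with no call in any comparison, had 1 call for siSFSWAP vs siNT and 1 for siSFSWAP/siUPF1 vs siSFSWAP with a robust prior, added after seeing the data, and 0 to 2 and 0 to 1 when 1 library was left out. Gene reads gave 2 to 7 calls for siSFSWAP vs siNT and 0 to 8 for siNT/siUPF1 vs siNT when 1 library was left out, and 0 for siNT/siUPF1 vs siNT with unscaled library sizes. The PSMD11 exon lost its call in UPF1-depleted cells without the filter (adjusted p = 0.125) and with limma at a pseudocount of 0.5 (adjusted p = 0.0512). All other alternatives kept each count within 1.5 times of its main value or at 0. A paired-column count test and DESeq2 size factors were planned and not run.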
